A study of Mus musculus with 7 samples.

Results

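The macrophage and myeloid genes of the islet are 57 genes chosen by name, and 56 of them were measured among the 19938 genes with a probe set of their own on the array. A gene counted as measured when the platform annotation gave its symbol alone for a probe set, and where several did, the one with the highest mean was taken. The symbol Adgre99 was matched to no probe set and is not used here. Of the measured members, 2 are lysozymes, 3 are the macrophage growth factor, its receptor and a lineage factor, and the others are surface, lysosomal, complement, chemokine and oxidase genes of phagocytes.

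Islets were taken on day 15 of pregnancy from 4 female mice heterozygous for a null allele of the prolactin receptor gene (PrlR+/-) and from 3 females with 2 intact copies (PrlR+/+). All mice were on the C57BL/6 strain background and had been mated when 12 to 16 weeks old. Mice were not pooled, and each gave 250 ng of biotin-labelled total RNA (integrity number above 8.5) for an Affymetrix expression array of its own, and this number of arrays limits the precision of each value. The labels do not give how the null allele was made or which cells lack a receptor copy, and no check of the labels against the signal of the targeted gene was made.

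Islets hold a small resident population of macrophages beside their endocrine and endothelial cells. These cells depend on signals through the receptor for colony stimulating factor 1, take up dying cells and debris, and make lysozyme, complement C1q and chemokines. Their genes are commonly controlled by PU.1, an ETS-family transcription factor encoded by Spi1, which binds DNA around a GGAA core.

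Values are log2 signals as the authors deposited them, so a difference of 1 is a 2-fold difference. Differences are PrlR+/- minus PrlR+/+ with limma's moderated standard error (SE), and p values were adjusted over all 19938 genes. No gene of the array passed an adjusted p of 0.05: 0 of 56 members and 0 of 19938 genes were called (0%), and the smallest adjusted p was 0.99. At an unadjusted p under 0.05, limma gave 438 genes. The median SE was 0.0977 over all genes and 0.103 over the members.

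Within these limits, 3 members stood apart by genotype. Lyz2, Itgad and Spi1 were higher in every PrlR+/- mouse than in every PrlR+/+ mouse. A second group, with complement C1q, Fc receptor adaptor and lysosomal genes, was lowest in a single PrlR+/+ mouse, and 8 of its 9 genes had differences of opposite sign with and without that mouse. In bulk islet RNA, more or fewer cells of a type and more or less of a transcript per cell cannot be told apart.

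Of the 56 members, 39 had a higher mean in PrlR+/- islets (69.6%), against 55.7% of all genes. Their median difference was 0.055, against 0.014 over all genes. At an unadjusted p under 0.05, limma gave 3 members on the higher side (5.36%), where 1.07% of all genes were, and 0 on the lower side, where 1.13% of all genes were. The groups of these same 3 members did not overlap, against 1.03% of all genes with all PrlR+/- mice above. All PrlR+/- mice lay below for 0 members, against 1.21% of all genes. The members were chosen with earlier results of these data known, so these shares are descriptions. Most members lay in the lower range of the array: 37 were at or below the median gene mean of 7.36 and 19 above it, with means from 4.06 for Retnla to 11.03 for Apoe.

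**Figure D1:**
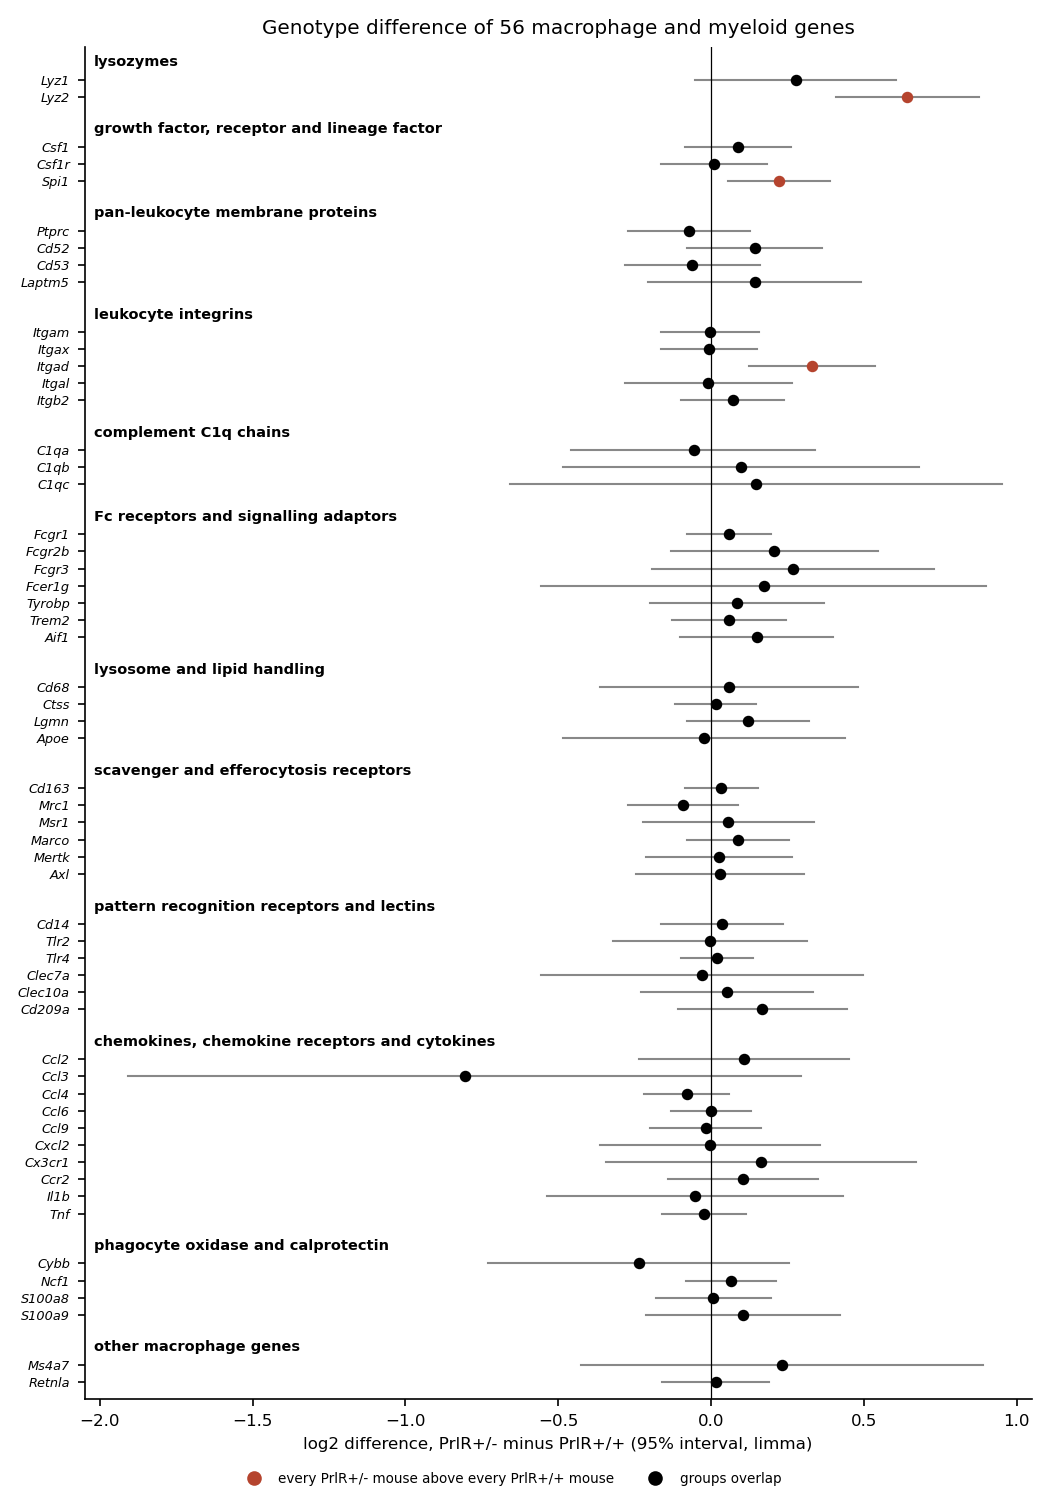
Difference in log2 signal, PrlR+/- minus PrlR+/+ (x axis), for each of the 56 measured members, grouped by role (y axis). Points are limma estimates and bars their 95% intervals. Red points are the 3 members whose groups did not overlap, Lyz2 at 0.64, Itgad at 0.33 and Spi1 at 0.22, and black points are the members whose groups overlapped.

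Of the positive differences, that of Lyz2 was the largest among the members. Lyz2 encodes the lysozyme of macrophages and granulocytes, which cuts bacterial cell walls, and Lyz1 encodes the close relative made by Paneth cells of the gut. The genes lie next to each other on chromosome 10. Their promoters are shown to compare the neighbouring copies. Each run is the gene's strand from 250 bases before to 50 after the start, from RefSeq (GRCm38.p6), and capitals mark ACTTCCT, the reverse complement of the ETS-family motif AGGAAGT.
Lyz2: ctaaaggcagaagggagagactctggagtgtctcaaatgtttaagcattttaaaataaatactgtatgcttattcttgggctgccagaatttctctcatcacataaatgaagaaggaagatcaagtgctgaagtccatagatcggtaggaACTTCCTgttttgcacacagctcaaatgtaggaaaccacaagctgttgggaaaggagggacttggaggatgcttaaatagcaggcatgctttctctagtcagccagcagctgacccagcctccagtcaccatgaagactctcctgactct
Lyz1: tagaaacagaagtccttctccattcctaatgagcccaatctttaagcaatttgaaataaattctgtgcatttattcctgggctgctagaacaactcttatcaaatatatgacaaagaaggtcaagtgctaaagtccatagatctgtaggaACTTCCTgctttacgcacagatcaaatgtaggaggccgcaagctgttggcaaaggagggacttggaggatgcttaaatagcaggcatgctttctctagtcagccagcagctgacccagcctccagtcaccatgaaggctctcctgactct
The Lyz2 window is chr10:117282223-117282522 on the minus strand, and the Lyz1 window is chr10:117292819-117293118 on the minus strand. The windows matched in 254 of 310 aligned columns (81.9%), and their last 100 bases in 99. Both hold the motif at -100 from the start. The encoded lysozymes are close relatives and probes for 1 transcript may also bind the other, so the gene behind a signal is uncertain.

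Lyz2 was at 8.80, 8.72, 8.49 and 8.79 in PrlR+/- 1 to 4, against 8.19, 8.05 and 7.93 in PrlR+/+ 1 to 3. The lowest PrlR+/- mouse lay above the highest PrlR+/+ mouse. The difference was 0.64 ± 0.10 (SE), a 1.56-fold higher signal with a 95% interval of 1.33 to 1.84, and limma gave an adjusted p = 0.99. It ranged from 0.58 to 0.71 over 15 other settings, with an unadjusted p under 0.05 in all 15.

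Lyz1 was at 7.13, 7.39, 6.82 and 6.93 in PrlR+/- 1 to 4, against 6.73, 6.71 and 6.93 in PrlR+/+ 1 to 3. PrlR+/- 1 and 2 were the highest mice, PrlR+/- 4 had the value of PrlR+/+ 3, and the groups overlapped. The difference was 0.28 ± 0.14 (SE, limma adjusted p = 0.99).

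Spi1, the gene of PU.1, was at 6.84, 6.85, 6.96 and 6.96 in PrlR+/- 1 to 4, against 6.75, 6.56 and 6.73 in PrlR+/+ 1 to 3. The groups did not overlap, and PrlR+/+ 2 was the lowest mouse. The difference was 0.22 ± 0.07 (SE, 1.17-fold, 95% interval 1.04 to 1.31, limma adjusted p = 0.99). Without PrlR+/+ 2 it was 0.16 (limma adjusted p = 0.98), the 1 of 15 other settings in which its unadjusted p was above 0.05.

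Csf1r encodes the receptor that macrophages need for survival and is among the defining markers of the lineage. It was at 7.42, 7.58, 7.38 and 7.34 in PrlR+/- 1 to 4, against 7.48, 7.42 and 7.36 in PrlR+/+ 1 to 3. The mice of both genotypes lay within 0.24 of each other, and the difference was 0.01 ± 0.07 (SE, 95% interval -0.16 to 0.18). Csf1, the gene of its ligand, was at 8.15, 8.14, 8.20 and 8.25 in PrlR+/- 1 to 4, against 8.15, 7.95 and 8.19 in PrlR+/+ 1 to 3. PrlR+/+ 2 was the lowest mouse, with a difference of 0.09 ± 0.08 (SE).

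The leukocyte integrins pair 1 of several alpha chains with the beta 2 chain encoded by Itgb2. Itgad, the alpha D chain, was at 7.83, 8.07, 8.19 and 8.01 in PrlR+/- 1 to 4, against 7.70, 7.69 and 7.69 in PrlR+/+ 1 to 3. The PrlR+/+ mice were nearly equal and every PrlR+/- mouse lay above them. The difference was 0.33 ± 0.09 (SE, 1.26-fold, 95% interval 1.09 to 1.45, limma adjusted p = 0.99).

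A second probe set of Itgad gave 5.55, 5.55, 5.49 and 5.95 in PrlR+/- 1 to 4, against 5.55, 5.55 and 5.40 in PrlR+/+ 1 to 3. There only PrlR+/- 4 was above the other mice, and the difference in means was 0.135. The neighbours of Itgad on chromosome 7, Itgax and Itgam, encode the alpha X and alpha M chains of dendritic cells and macrophages. They differed by -0.006 ± 0.067 and -0.002 ± 0.068 (SE), with overlapping groups. Itgam was at 5.23, 5.39, 5.41 and 5.44 in PrlR+/- 1 to 4, against 5.39, 5.39 and 5.33 in PrlR+/+ 1 to 3. Itgb2 was at 6.44, 6.49, 6.33 and 6.57 in PrlR+/- 1 to 4, against 6.44, 6.38 and 6.34 in PrlR+/+ 1 to 3. Its groups overlapped, with a difference of 0.07 ± 0.07, and Itgal, the alpha L chain, differed by -0.01 ± 0.12.

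**Figure D2:**
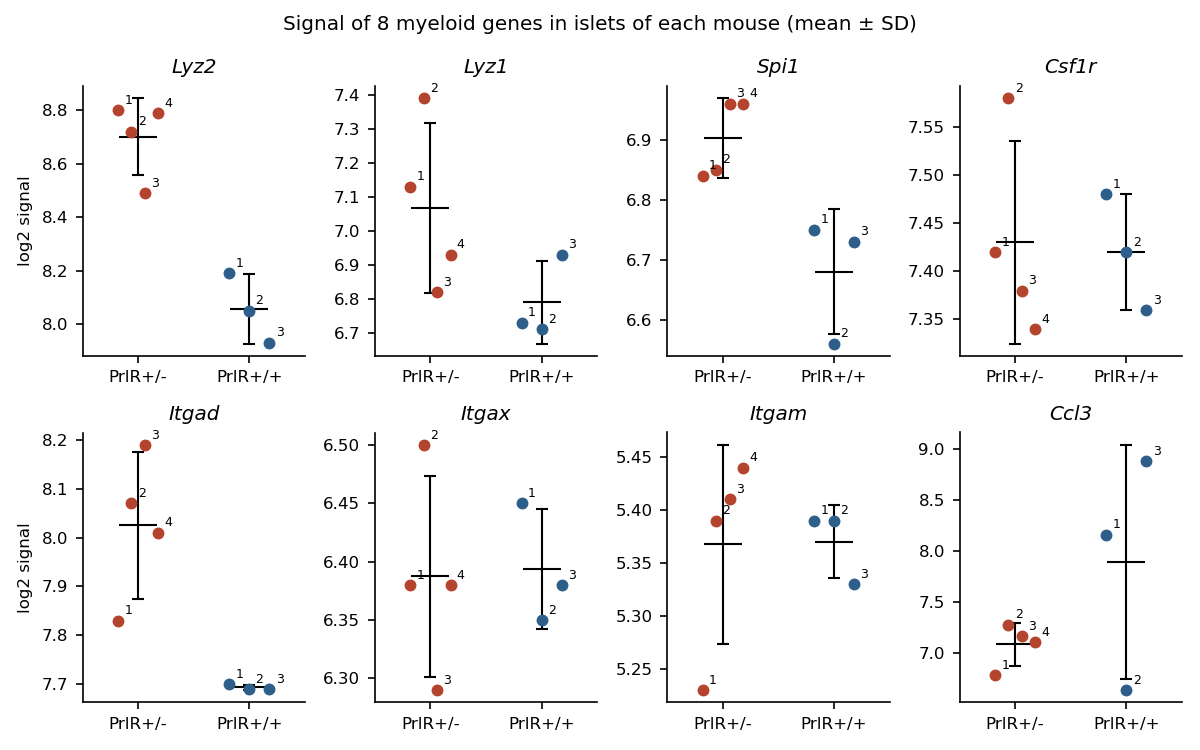
Log2 signal (y axis, a scale of its own in each panel) of 8 members in each mouse, PrlR+/- in red and PrlR+/+ in blue, with the mouse number beside each point and the mean ± SD as bars. The groups are separate for Lyz2, Spi1 and Itgad and overlap for Lyz1, Csf1r, Itgax, Itgam and Ccl3.

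The 3 chains of complement C1q, which macrophages secrete and which tags dying cells and immune complexes, did not share 1 pattern over the mice. C1qc was at 8.66, 9.14, 8.59 and 8.63 in PrlR+/- 1 to 4, against 9.16, 7.70 and 8.96 in PrlR+/+ 1 to 3. C1qb was at 9.88, 10.07, 9.88 and 9.59 in PrlR+/- 1 to 4, against 10.11, 9.11 and 10.05 in PrlR+/+ 1 to 3. For both genes PrlR+/+ 2 was the lowest of the 7 mice and PrlR+/+ 1 the highest.

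C1qa was at 9.42, 9.10, 9.32 and 8.69 in PrlR+/- 1 to 4, against 9.27, 9.07 and 9.23 in PrlR+/+ 1 to 3. PrlR+/- 4 was the lowest mouse for this chain and PrlR+/+ 2 was close to PrlR+/- 2. The genotype differences were 0.15 ± 0.34 for C1qc, 0.10 ± 0.25 for C1qb and -0.06 ± 0.17 for C1qa (SE). The 3 genes are adjacent on chromosome 4, in the order C1qa, C1qc and C1qb.

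The promoters of the 2 chains lowest in PrlR+/+ 2 are shown from the same source, with the same motif in capitals.
C1qb: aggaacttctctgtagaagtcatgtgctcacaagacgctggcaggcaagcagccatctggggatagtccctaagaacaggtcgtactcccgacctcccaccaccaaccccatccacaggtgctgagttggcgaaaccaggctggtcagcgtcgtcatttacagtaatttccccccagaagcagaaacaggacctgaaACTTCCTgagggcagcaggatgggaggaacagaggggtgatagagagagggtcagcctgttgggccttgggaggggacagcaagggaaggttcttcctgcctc
C1qc: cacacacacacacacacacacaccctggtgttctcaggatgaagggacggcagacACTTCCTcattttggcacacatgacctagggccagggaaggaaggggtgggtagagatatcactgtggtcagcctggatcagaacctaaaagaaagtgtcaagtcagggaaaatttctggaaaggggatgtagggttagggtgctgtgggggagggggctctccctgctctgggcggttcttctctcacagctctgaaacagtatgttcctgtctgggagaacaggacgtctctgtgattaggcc
The C1qb window is chr4:136886151-136886450 on the minus strand, with the motif at -53 from the start. The C1qc window is chr4:136892865-136893164 on the minus strand, with the motif at -195.

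Promoters of 42 of the 56 members were in the RefSeq table, and 5 motifs were searched on both strands. AGGAAGT was in 13 of the 42 (31%), against 10.7% of the 27025 genes of the table. Among those 13 were both lysozymes, Ptprc, Cd53, C1qb, C1qc and Ctss. The longer GAGGAAGT was in 5 (11.9%, against 3.69%) and the shorter GAGGAA in 24 (57.1%, against 31.3%), and these 3 ETS-family motifs overlap each other. The AP-1 motif TGACTCA was in 2 members (4.76%, against 5.95%), and the STAT motif TTCNNNGAA also in 2 (4.76%, against 9.55%). A match describes the letters of the window and is not a binding site.

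PrlR+/+ 2 lay at least 0.3 below every other mouse for 9 of the 56 members (16.1%), against 241 of 19938 genes (1.21%). This distance was set after the values were seen, so the count is a description. The 9 members were Laptm5, C1qb, C1qc, Fcer1g, Tyrobp, Cd68, Clec7a, Cx3cr1 and Ms4a7. Of these, only C1qb and C1qc were among the 13 members with AGGAAGT in their promoter. A member without a promoter in the RefSeq table could not be among them. The gap to the next mouse was from 0.34 for Tyrobp to 0.89 for C1qc, and the nearest member outside was Cd52 with 0.29. By the same distance PrlR+/- 4 was lowest for 3 members, where it was lowest for 4.63% of all genes, and each of the other 5 mice for 0 members.

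Fcer1g and Tyrobp encode the membrane adaptors through which many activating receptors of myeloid cells signal. Fcer1g was at 8.51, 8.78, 8.29 and 8.67 in PrlR+/- 1 to 4, against 8.94, 7.57 and 8.66 in PrlR+/+ 1 to 3. Tyrobp was at 7.76, 7.80, 7.70 and 7.72 in PrlR+/- 1 to 4, against 7.90, 7.36 and 7.72 in PrlR+/+ 1 to 3. For both, PrlR+/+ 1 was the highest and PrlR+/+ 2 the lowest mouse. The differences were 0.17 ± 0.31 for Fcer1g and 0.09 ± 0.12 for Tyrobp (SE).

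Cx3cr1, the fractalkine receptor of tissue macrophages, was at 7.60, 7.63, 7.60 and 7.53 in PrlR+/- 1 to 4, against 7.75, 6.82 and 7.71 in PrlR+/+ 1 to 3. Ms4a7, a membrane protein gene of macrophages, was at 6.73, 7.12, 7.14 and 6.61 in PrlR+/- 1 to 4, against 7.14, 5.98 and 6.88 in PrlR+/+ 1 to 3. Apart from PrlR+/+ 2, the Cx3cr1 values of both genotypes spanned 7.53 to 7.75, with both PrlR+/+ mice above all PrlR+/- mice.

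Cd68, a lysosomal glycoprotein used as a macrophage marker, was at 7.70 in each of the 4 PrlR+/- mice, against 7.72, 7.17 and 8.03 in PrlR+/+ 1 to 3. Laptm5, a lysosomal membrane protein of blood cells, was at 8.75 in PrlR+/+ 2 and at 9.18 to 9.41 in the others. Clec7a, the beta-glucan receptor Dectin-1, was at 5.57 in PrlR+/+ 2 and at 5.92 to 6.48 in the others. Equal values on several arrays, as for Cd68, were common in the deposited table: 12 members (21.4%) and 34.5% of all genes had 1 value on at least 3 arrays.

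**Figure D3:**
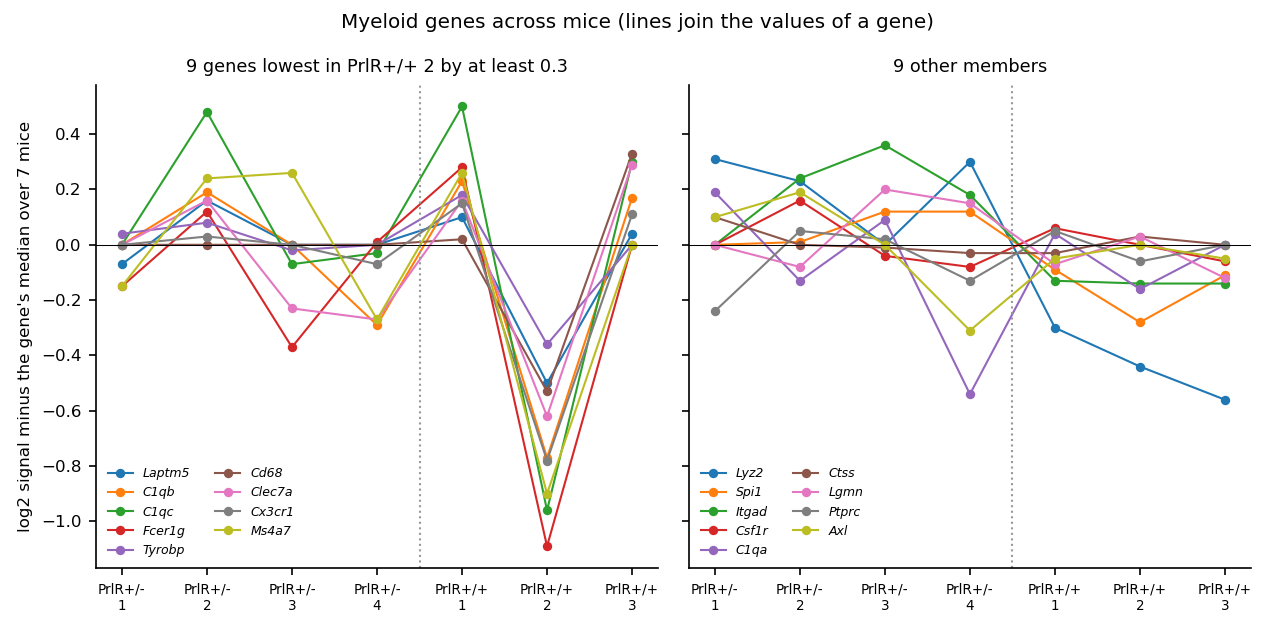
Log2 signal minus the gene's median over the 7 mice (y axis) in each mouse (x axis), for the 9 members lowest in PrlR+/+ 2 by at least 0.3 (left) and for 9 other members (right); lines join the values of a gene and imply no order of mice. The left panel drops at PrlR+/+ 2 for every gene, whereas C1qa, Csf1r, Ctss and Lgmn in the right panel do not have that gap.

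With all mice 8 of the 9 had a higher mean in PrlR+/- islets, with a median difference of 0.143. Without PrlR+/+ 2 all 9 had a lower mean in PrlR+/- islets, from -0.31 to -0.05 with a median of -0.175, and 0 had an unadjusted p under 0.05 by limma (adjusted p = 0.98). Because the 9 were chosen as lowest in that mouse, leaving it out lowers each of these differences by construction, so the shift describes how far 1 mouse carried them. Clec7a had a lower mean in both fits, at -0.03 with all mice and -0.31 without PrlR+/+ 2. The mean level of the 9 was 8.02, 8.22, 8.01 and 7.96 in PrlR+/- 1 to 4, against 8.27, 7.34 and 8.20 in PrlR+/+ 1 to 3. PrlR+/+ 1 was the highest mouse for 6 of the 9, among them Ms4a7, for which PrlR+/- 3 had the same value. The other 47 members had a higher mean in 31 cases, with a median of 0.028.

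Some other genes of antigen-presenting and myeloid cells, picked after their values were seen, had the same gap. The class II antigen presentation genes H2-Ab1, H2-Eb1 and H2-Aa were at 9.27, 9.47 and 9.54 in PrlR+/+ 2. The lowest values of these genes in the other mice were 9.97, 9.98 and 9.99. Cd74, the class II invariant chain, was at 10.55 in PrlR+/+ 2 and at 11.09 to 11.33 in the others. The complement receptor gene C3ar1 was at 6.96 there against 7.59 to 8.22, and Cd180, a Toll-like receptor relative, at 6.09 against 6.66 to 7.50. The gap was also counted in the pathway lists described below, beside a share of 1.21% of all genes. It was found for 1 of 27 CSF1 receptor, TYROBP and transcription partners and 2 of 18 complement, oxidase and phagocytosis partners. Of the chemokine and Toll-like receptor partners 2 of 23 had it, and of the further macrophage and monocyte genes 0 of 23. Adgre1, in the last of these lists, was at 6.79 in PrlR+/+ 2 and at 6.89 to 7.23 in the others.

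PrlR+/+ 2 was also the lowest mouse for genes that are not counted as myeloid. The 5 genes outside the list whose values ran closest to C1qc over the 7 mice, ranked by Pearson r, were Mutyh (0.991), Sphk2 (0.988), Cspp1 (0.983), Atxn2l (0.982) and Camsap3 (0.982). These genes were chosen for following C1qc, which was lowest in PrlR+/+ 2, so their low values in that mouse come with the choice. Cspp1, a gene of spindle and cilium proteins, was at 9.04 in PrlR+/+ 2 and at 9.40 to 9.81 in the other mice. The distance was smaller for Mutyh (6.69, against 6.96 to 7.11) and Camsap3 (8.88, against 9.03 to 9.17). Marker lists of 10 other cell types held no gene at least 0.3 lower in PrlR+/+ 2 than in every other mouse. Their mean levels in PrlR+/+ 2 lay close to those of the other mice: 5.51 for lymphocytes, 4.98 for neutrophils and 6.00 for dendritic cells. What sets PrlR+/+ 2 apart was not tested.

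**Figure D4:**
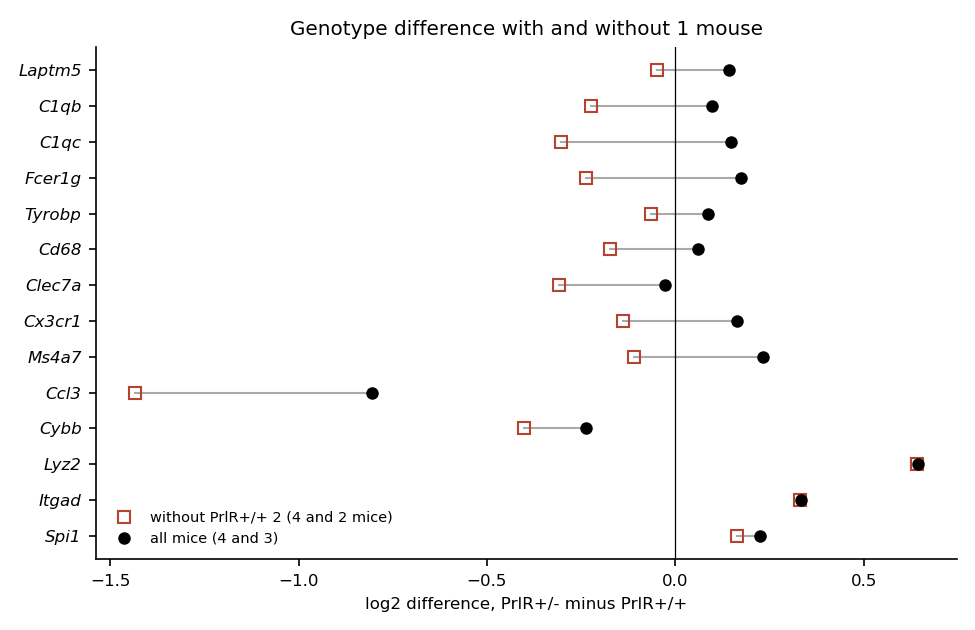
Difference in log2 signal, PrlR+/- minus PrlR+/+ (x axis), for 14 members (y axis) without PrlR+/+ 2 (open red squares, 4 and 2 mice) and with all mice (black circles, 4 and 3 mice). Lyz2 (0.64 in both fits) and Itgad (0.33 in both) stay in place, 8 of the 9 genes low in that mouse cross zero, and Ccl3 is at -1.43 in place of -0.81.

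Without PrlR+/+ 2, groups that do not overlap were found for 10 members. Lyz2, Spi1, Itgad and the scavenger receptor gene Msr1 were on the higher side (7.14%, against 5.19% of all genes). Cd53, Cd68, Ccl3, Ccl4, Cx3cr1 and Cybb were on the lower side (10.7%, against 5.09% of all genes). These shares of all genes are larger than with 7 mice because 1 group then holds only 2 mice.

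Of the chemokine and cytokine genes, Ccl3 had the widest spread. It encodes a chemokine that macrophages release on activation. Ccl3 was at 6.79, 7.28, 7.17 and 7.11 in PrlR+/- 1 to 4, against 8.16, 6.64 and 8.88 in PrlR+/+ 1 to 3. PrlR+/+ 1 and 3 lay above all PrlR+/- mice and PrlR+/+ 2 below them. The difference was -0.81 ± 0.47 (SE, limma adjusted p = 0.99). Without PrlR+/+ 2 it was -1.43 (limma adjusted p = 0.98, unadjusted p under 0.05). It was -0.31 without PrlR+/+ 3 and -0.67 without PrlR+/+ 1 (limma adjusted p = 1 in both).

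Ccl4, its neighbour on chromosome 11 and a ligand of the same receptor family, was at 5.68, 5.75, 5.79 and 5.82 in PrlR+/- 1 to 4, against 5.86, 5.79 and 5.87 in PrlR+/+ 1 to 3. PrlR+/+ 1 and 3 were the highest mice and PrlR+/+ 2 lay among the PrlR+/- mice. The difference was -0.08 ± 0.06 (SE). Of all 10 genes in this group 4 had higher means and 6 lower ones, with a median of -0.01. Ccl2, the monocyte attractant, differed by 0.11 ± 0.15 and its receptor gene Ccr2 by 0.10 ± 0.10 (SE). The cytokine genes Il1b and Tnf differed by -0.05 ± 0.21 and -0.02 ± 0.06, Ccl6 by 0.001 ± 0.056, Ccl9 by -0.02 ± 0.08 and Cxcl2 by -0.003 ± 0.153.

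The Fc receptors bind the constant part of antibodies. All 7 genes of the Fc receptor and adaptor group had a higher mean in PrlR+/- islets, where 55.7% of all genes did. Their median difference was 0.15, and 0 passed the test. Without PrlR+/+ 2 the means of Fcer1g and Tyrobp were lower in PrlR+/- islets (-0.238 and -0.065), and those of the other genes of the group stayed higher. Fcgr2b, the inhibitory receptor, was at 6.69, 6.85, 6.80 and 7.30 in PrlR+/- 1 to 4, against 6.61, 6.80 and 6.70 in PrlR+/+ 1 to 3. PrlR+/- 4 alone was above the rest, and the difference was 0.21 ± 0.14 (SE, limma adjusted p = 0.99), with 0.077 left without that mouse.

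Fcgr3, an activating receptor, was at 6.66, 6.35, 7.11 and 7.10 in PrlR+/- 1 to 4, against 6.48, 6.72 and 6.41 in PrlR+/+ 1 to 3. PrlR+/- 3 and 4 were the high mice and the difference was 0.27 ± 0.20 (SE). Aif1, the gene of the macrophage marker Iba1, was at 5.56, 5.36, 5.69 and 5.79 in PrlR+/- 1 to 4, against 5.46, 5.37 and 5.52 in PrlR+/+ 1 to 3. PrlR+/- 1, 3 and 4 were above all PrlR+/+ mice and PrlR+/- 2 below them. Aif1 differed by 0.15 ± 0.11, Fcgr1 by 0.06 ± 0.06 and Trem2, a lipid-binding receptor that signals through the Tyrobp adaptor, by 0.06 ± 0.08 (SE).

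Among the pan-leukocyte genes, Ptprc, the CD45 phosphatase of all leukocytes, was at 6.30, 6.59, 6.56 and 6.41 in PrlR+/- 1 to 4, against 6.59, 6.48 and 6.54 in PrlR+/+ 1 to 3. The groups overlapped and the difference was -0.07 ± 0.09 (SE). Cd52 and Cd53, surface proteins of leukocytes, differed by 0.14 ± 0.09 and -0.06 ± 0.09, and Laptm5 by 0.14 ± 0.15. Cd52 was at 6.71, 6.53, 6.56 and 6.53 in PrlR+/- 1 to 4, against 6.53, 6.24 and 6.55 in PrlR+/+ 1 to 3. Laptm5 was at 9.18, 9.41, 9.25 and 9.25 in PrlR+/- 1 to 4, against 9.35, 8.75 and 9.29 in PrlR+/+ 1 to 3. For both genes PrlR+/+ 2 was the lowest mouse.

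In the lysosomal and lipid group, the proteases Lgmn and Ctss differed by 0.12 ± 0.08 and 0.02 ± 0.06 (SE). Lgmn was at 9.11, 9.03, 9.31 and 9.26 in PrlR+/- 1 to 4, against 9.04, 9.14 and 8.99 in PrlR+/+ 1 to 3, and PrlR+/- 3 and 4 were the highest mice. Apoe, a lipid carrier that macrophages and other cells make, was at 11.20, 11.42, 10.90 and 10.56 in PrlR+/- 1 to 4, against 11.20, 11.00 and 10.93 in PrlR+/+ 1 to 3. Its PrlR+/- mice spanned more than its PrlR+/+ mice, and the means differed by -0.02 ± 0.20. Cd68 differed by 0.06 ± 0.18.

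Of the 6 receptors for scavenging and uptake of dying cells, 5 had higher means, where 55.7% of all genes did. Their differences ran from 0.03 for Mertk to 0.09 ± 0.07 for Marco. Axl, Cd163 and Msr1 lay between them. Marco was at 5.80, 5.90, 5.79 and 6.01 in PrlR+/- 1 to 4, against 5.74, 5.81 and 5.81 in PrlR+/+ 1 to 3. Mrc1, the mannose receptor, was at 5.50, 5.41, 5.26 and 5.53 in PrlR+/- 1 to 4, against 5.50, 5.53 and 5.52 in PrlR+/+ 1 to 3. PrlR+/- 2 and 3 were its lowest mice, and it differed by -0.09 ± 0.08 (SE).

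The lectins and Toll-like receptors bind microbial sugars, lipids and proteins. Of the 6 pattern recognition genes, Cd209a, a lectin of dendritic cells, differed by 0.17 ± 0.12, Clec10a by 0.05 ± 0.12, Cd14 by 0.04 ± 0.09, Tlr4 by 0.02 ± 0.05, Tlr2 by -0.002 ± 0.136 and Clec7a by -0.03 ± 0.22. Cd209a was at 6.56, 7.04, 6.88 and 6.67 in PrlR+/- 1 to 4, against 6.55, 6.64 and 6.67 in PrlR+/+ 1 to 3. Clec10a was at 4.33, 4.71, 4.32 and 4.69 in PrlR+/- 1 to 4, against 4.38, 4.47 and 4.53 in PrlR+/+ 1 to 3. PrlR+/- 2 was the highest mouse for both lectins, and the groups overlapped.

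Cybb, the catalytic subunit of the phagocyte oxidase, was at 8.37, 8.63, 8.29 and 7.80 in PrlR+/- 1 to 4, against 8.65, 8.18 and 8.70 in PrlR+/+ 1 to 3. PrlR+/- 4 was the lowest mouse and PrlR+/+ 2 the next, and the difference was -0.24 ± 0.21 (SE), or -0.08 without PrlR+/- 4. Ncf1, a cytosolic subunit, was at 6.83, 6.83, 6.83 and 6.96 in PrlR+/- 1 to 4, against 6.72, 6.83 and 6.84 in PrlR+/+ 1 to 3, and differed by 0.07 ± 0.06. PrlR+/- 4 was the highest mouse. S100a8 and S100a9, which make the neutrophil protein calprotectin, differed by 0.01 ± 0.08 and 0.11 ± 0.14. Of the remaining macrophage genes, Ms4a7 differed by 0.23 ± 0.28 and Retnla, a marker of alternatively activated macrophages, by 0.02 ± 0.07. Retnla was at 4.04, 4.04, 3.95 and 4.22 in PrlR+/- 1 to 4, against 4.01, 4.07 and 4.06 in PrlR+/+ 1 to 3, with overlapping groups. The limma adjusted p of every member lay between 0.99 and 1.

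Other genes of the same pathways gave no call. Of 27 measured partners of the CSF1 receptor, TYROBP and myeloid transcription factors, 23 had a higher mean in PrlR+/- islets, with a median of 0.067. Cebpe, a granulocyte lineage factor (0.31 ± 0.12), and Tfec, a factor of the MITF family (0.25 ± 0.09, SE), had unadjusted p values under 0.05 by limma and an adjusted p = 0.99. The mean level of that list was 6.65 in PrlR+/- 4 and 6.32 to 6.37 in the other 6 mice.

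Of 18 complement, oxidase and phagocytosis partners 12 had higher means (median 0.055), with the smallest p for the oxidase subunit gene Ncf4 (0.19 ± 0.11, SE). Of 23 further macrophage and monocyte genes 16 did (median 0.077), with the smallest p for the chitinase-like gene Chil3 (0.26 ± 0.13). Of 23 chemokine and Toll-like receptor partners 15 did (median 0.04), with the smallest p for the nucleic acid receptor gene Tlr9 (0.09 ± 0.07). The shares stand beside 55.7% of all genes.

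Markers of other leukocytes are given by their mean level per mouse. The mean level of 10 neutrophil markers was 4.85 to 5.12 in PrlR+/- islets and 4.88 to 4.98 in PrlR+/+ islets, with 5 of 10 higher. Of 8 dendritic cell markers 5 were higher (5.97 to 6.14 in PrlR+/- islets, 5.97 to 6.06 in PrlR+/+ islets), and of 6 mast cell, basophil and eosinophil markers 5 (4.32 to 4.41, against 4.30 to 4.33). Of 11 lymphocyte markers 10 had higher means, and the list was at 5.50 to 5.74 in PrlR+/- islets and at 5.45 to 5.51 in PrlR+/+ islets. The 5.74 was that of PrlR+/- 4, and the other PrlR+/- mice were at 5.50 to 5.57. Cd3d (0.176, groups that did not overlap) and Ighm (0.174) had an unadjusted p under 0.05 by limma, where 1.07% of all genes had one on the higher side. The counts of higher means stand beside 55.7% of all genes.

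Of the non-leukocyte lists, 5 of 8 endothelial markers had higher means in PrlR+/- islets (levels 9.24 to 9.56, against 9.25 to 9.35 in PrlR+/+ islets). Emcn, an endothelial surface sialomucin (0.256, groups that did not overlap), and Cdh5, the endothelial cadherin (0.233), had an unadjusted p under 0.05 by limma. Higher means were also found for 8 of 9 stellate and fibroblast markers (7.62 to 8.09, against 7.63 to 7.87) and for 6 of 7 acinar markers (11.87 to 12.22, against 11.81 to 12.03). They were also found for 3 of 5 duct markers (7.46 to 7.77, against 7.39 to 7.58) and 2 of 2 red blood cell markers (6.46 to 6.69, against 6.42 to 6.55). The groups of the duct marker Sox9 (0.213) did not overlap, as for 1.03% of all genes with all PrlR+/- mice above. Of 9 beta cell markers 3 had higher means (11.92 to 12.16, against 12.05 to 12.21). These counts, too, stand beside 55.7% of all genes. The part of these lists in the differences of the members was not tested.

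The covariation across mice was computed for Lyz2 and for Csf1r against every other member, 109 relations in all. None of the 109 passed a Benjamini-Hochberg adjusted p of 0.05, with the smallest at 0.497 for Pearson r and 0.433 for Spearman rho, both by exact permutation. Because the Lyz2 values fall into separate clusters by genotype, its relation to other members cannot be tested over the pooled mice. Of the 54 relations of Csf1r alone, 4 had an unadjusted exact permutation p under 0.05 by r (Apoe, Ccl9, Trem2 and Itgax) and 5 by rho (Apoe, Ccl9, Ncf1, Aif1 and Csf1). Apoe ran with Csf1r, with r = 0.890 (exact 2-sided permutation p = 0.00794, adjusted 0.497) and rho = 0.936 (exact permutation p = 0.00397, adjusted 0.433), and r was 0.824 without PrlR+/- 2 and 4, the mice farthest from the median of Csf1r.

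Ccl9 ran against Csf1r, with r = -0.879 (exact permutation p = 0.00913, adjusted 0.497) and rho = -0.918 (exact permutation p = 0.00794, adjusted 0.433), and r was -0.634 without those mice. Trem2 had r = 0.871 (exact permutation p = 0.023, adjusted 0.813), 0.874 without those mice, and rho = 0.664 (exact permutation p = 0.112). Itgax had r = 0.795 (exact permutation p = 0.0369, adjusted 0.813), 0.694 without those mice, and rho = 0.561 (exact permutation p = 0.207). By rho, Ncf1 was at -0.815, Aif1 at -0.811 and Csf1 at -0.791 (exact permutation p = 0.0333, 0.0349 and 0.0429, each adjusted 0.779), while r was -0.518, -0.738 and -0.296 (exact permutation p = 0.238, 0.0563 and 0.471). C1qc had r = 0.377 with Csf1r (exact permutation p = 0.38) and rho = 0.487 (exact permutation p = 0.278). The groups hold 4 and 3 mice, too few for a relation within either genotype.

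Outside the list, 19882 genes were ranked by Pearson r with Csf1r over the 7 mice. The 5 closest were Acta2 (0.988), Anxa3 (0.981), Nup62cl (0.972), Eif2s3y (0.965) and Cckar (0.962). Among so many genes, high r values over 7 mice arise by chance, so the ranking is a description and no test of a relation. Eif2s3y was dim, at 2.82 to 3.07, below the lowest member mean (4.06 for Retnla), so its r may reflect background. Acta2, a smooth muscle and stellate cell actin, was at 8.44, 9.07, 8.37 and 8.13 in PrlR+/- 1 to 4, against 8.60, 8.45 and 8.17 in PrlR+/+ 1 to 3. PrlR+/- 2 was the highest mouse for all 5 of the closest genes and for Csf1r. The genes closest to Lyz2, ranked in the same way and with the same limit, were Tex50, Magef1, Nkpd1, Folr1 and Entpd8. Folr1, a folate receptor gene, was at 9.27, 9.10, 9.17 and 9.32 in PrlR+/- 1 to 4, against 9.03, 8.92 and 8.86 in PrlR+/+ 1 to 3.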

How the data were processed

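Transcripts were measured with 1 array per mouse. The authors deposited log2 values with 2 decimals, a scale taken from their range. Affymetrix Expression Console 1.2.0.20 was used, per the submitters' processing notes. How background, normalization and probe summaries were handled is not given in the sources used here. Scan dates and scanner files were not used, and batches were not tested. Groups came from the source labels, and p values measure the spread between mice.

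Probe sets with 1 gene symbol were kept and the one of highest mean stood for a gene, giving 19938 genes with no filter on dim ones. Differences come from limma 3.58.1 (lmFit and eBayes, 2-sided, Benjamini-Hochberg) in R 4.3.3 on all genes. The fits were tested on simulated data. Tables and correlations used pandas 2.3.3 and scipy 1.17.1 in Python 3.11.15. Promoters came from a RefSeq table. It held no entry used here for 14 members, which are only named.

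The members and lists were chosen with earlier results of these data known. Given in full are the lysozymes, members whose groups do not overlap, the 2 of smallest unadjusted p in each role group, and the markers Csf1r, Cd68, C1qa, C1qb, C1qc, Itgam and Ptprc. Of each pathway list, members with an unadjusted p under 0.05 or the 1 of smallest p are named, and for Lyz2 and Csf1r the 5 genes closest by Pearson r. The 9 members low in PrlR+/+ 2, the genes compared with C1qc and the motifs were chosen after the values were seen. Other genes were named to account for every member.

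Alternatives were eBayes with an intensity trend, with and without robust variances, array weights, quantile normalization, median centring, a filter at the 40th percentile of the mean, the mean of all probe sets, the replicate number as a block and leaving out each mouse. PrlR+/- and PrlR+/+ share replicate numbers 1 to 3. The deviations of same-numbered mice from their genotype means had r = 0.0896, -0.386 and -0.0287. With 1 pair of mice per number, these values cannot exclude a pairing, and the main fit did not pair the mice.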

Additional observations from a re-analysis of the deposited data

Results flagged for a closer look

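In 5 of 55 members checked, 1 PrlR+/- mouse lay far from the other PrlR+/- mice. Chance alone flags about 1 in 20 groups in this way. C1qc was at 9.14 in PrlR+/- 2, whereas the other PrlR+/- mice were at 8.59 to 8.66. Cd52 was at 6.71 in PrlR+/- 1, whereas the others were at 6.53 to 6.56.

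For 3 of the 5, the other PrlR+/- mice shared 1 value. In that case any different value in the remaining mouse counts as far, however small the distance. Cd53 was at 6.80 in PrlR+/- 4 and at 6.98 in the others. Ncf1 was at 6.96 in PrlR+/- 4 and at 6.83 in the others. Tlr4 was at 5.15 in PrlR+/- 4 and at 5.12 in the others. PrlR+/- 4 was alone highest for 16 of the 56 members and for 29.3% of all genes. The PrlR+/+ group of 3 was not checked in this way.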

How the results depend on the processing

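Over 15 alternatives 0 genes of the array passed the adjusted threshold, with 247 to 1132 genes at an unadjusted p under 0.05. Members with a higher mean in PrlR+/- islets numbered 39 of 56 in the main fit (69.6%) and 32 with array weights (57.1%). Of all genes 55.7% and 54.1% were higher in these fits. With quantile normalization it was 35 members (62.5%) and 51.9% of all genes, and with median centring 36 members (64.3%) and 51.5%. Above the 40th percentile of the mean it was 22 of 28, and 48.5% of all genes. Leaving out 1 mouse gave 35 to 42 members, where 49.45% to 56.62% of all genes were higher. The members whose groups did not overlap numbered 3 to 10 with 1 mouse left out, and the 10 came without PrlR+/+ 2. Without that mouse 5.19% of all genes did not overlap on the higher side and 5.09% on the lower side. With all mice these shares were 1.03% and 1.21%. Lyz2, Itgad, Spi1, Lyz1 and Ccl3 kept their sign in all 15 alternatives, but not all of these could have changed it. The eBayes variants and the filter on the mean leave each difference as it was. So does the mean of all probe sets for a gene with 1 probe set, such as Lyz1 and Ccl3. The block gives the same differences as leaving out PrlR+/- 4. For Lyz2, Itgad and Spi1, whose groups do not overlap, leaving out or weighting mice could not have changed the sign.

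With the replicate number as a block, over the 3 numbers both groups share, 0 genes passed. In that fit 37 members had a higher mean (66.07%), against 49.45% of all genes, and the median difference of the members was 0.037. Array weights gave 1132 genes and 6 members an unadjusted p under 0.05 (Lyz1, Lyz2, Spi1, Itgad, Ccl3 and Ccl4) by limma, and 0 genes past the adjusted threshold (smallest adjusted p = 0.534). The deposited values give no signal over background, so what low signals mean for the 37 members at or below the median gene is not known.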
